A study of Mus musculus with 4 samples.

Results

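Sialic acid and fucose are the sugars that most often end or decorate the glycan chains of animal cells, and the 32 genes described here encode enzymes that make, attach or break them down. They were taken from a list of 35 genes by matching the accession of each probe set to a mouse gene symbol, out of 909 named genes on the array. Each gene was represented by its probe set with the highest mean over the arrays. The 32 comprised 19 sialyltransferases, 9 fucosyltransferases and 4 genes of sialic acid synthesis, activation and breakdown, called sialic acid supply here. St6gal2, Sec1 and Nanp could not be matched and are not analysed here.

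The cells were smooth muscle cells of blood vessels (VSMC), which set the tone of an artery, cultured from wild-type mice. Every culture was kept in osteogenic medium, which pushes such cells towards a bone-like state. RNA was hybridised to 4 arrays. On 2 arrays the cells had also received 0.4 mM streptozotocin, a nitrosourea linked to glucosamine that is used to destroy pancreatic beta cells, and 2 were controls without it. Each arm held 1 array of the cell sample WT2 and 1 of the cell sample WTA. These are called cultures here, since the labels do not say whether they are separate animals, and the strain is not named. All 4 titles carry the mark 3w, which the labels do not explain and which could be an age or a time. Since separate animals are not stated, the p-values measure only the spread between these arrays. In the streptozotocin fit without a block that spread holds the difference between WT2 and WTA. Otherwise it may be technical. In the culture comparison each culture is 1 cell sample, with its control and treated arrays standing as replicates. Those p-values rest on how far the streptozotocin differences of the cultures disagree, and hold no spread between cell samples. Values are log2 expression per probe set, normalised by RMA, and the 4 array medians lay between 5.83 and 5.87. None of 8 smooth muscle markers and none of 8 bone markers could be matched to a probe set, so the labelled cell type was not checked against them.

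Sialyltransferases move sialic acid from the activated donor CMP-sialic acid to the end of a glycan and are named by the linkage they form. ST3Gal and ST6Gal enzymes cap galactose, ST6GalNAc enzymes act mainly on the O-glycans of mucin-type proteins and on gangliosides, and ST8Sia enzymes add sialic acid to another sialic acid. Fucosyltransferases use GDP-fucose and build the H and Lewis antigens, the fucose at the core of N-glycans, or fucose attached directly to proteins. On vessels and leukocytes, glycans that carry both sugars are ligands of selectins, and ST6Gal1 products are ligands of some Siglec receptors.

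The upstream windows of St6gal1, Fut4 and Fut11 are shown first. St6gal1 is the member that differed past the test, and Fut4 and Fut11 had the lowest unadjusted p among members in the paired streptozotocin fit (with a replicate block). These were 2 of 32 members with an unadjusted p under 0.05 there (limma), against 6.42% of all probe sets, and neither passed after adjustment. Each window runs from 250 bases before to 50 after an annotated start, on the gene's own strand (RefSeq, GRCm38.p6). Of the 32 members 21 had a window in that table, with 29 windows in all. Capitals mark the GC box GGGCGG on either strand, a letter pattern common in promoters. The core TGTGGT bound by RUNX factors was also searched on both strands, since the design text names Runx2, and the letters of the 2 patterns cannot overlap.
St6gal1 start 1, chr16:23224490-23224789, plus strand: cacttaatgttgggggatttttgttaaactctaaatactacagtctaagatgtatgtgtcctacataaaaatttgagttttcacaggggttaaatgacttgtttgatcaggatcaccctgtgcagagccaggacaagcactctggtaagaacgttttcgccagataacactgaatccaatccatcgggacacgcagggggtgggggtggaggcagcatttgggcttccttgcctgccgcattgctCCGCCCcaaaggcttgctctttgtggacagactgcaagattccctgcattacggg
St6gal1 start 2, chr16:23225771-23226070, plus strand: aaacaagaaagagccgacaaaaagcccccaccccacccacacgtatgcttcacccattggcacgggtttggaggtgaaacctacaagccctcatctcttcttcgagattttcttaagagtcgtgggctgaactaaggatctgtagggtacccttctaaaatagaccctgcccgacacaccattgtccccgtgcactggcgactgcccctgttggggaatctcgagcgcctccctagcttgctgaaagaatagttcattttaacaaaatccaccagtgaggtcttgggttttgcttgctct
St6gal1 start 3, chr16:23290220-23290519, plus strand: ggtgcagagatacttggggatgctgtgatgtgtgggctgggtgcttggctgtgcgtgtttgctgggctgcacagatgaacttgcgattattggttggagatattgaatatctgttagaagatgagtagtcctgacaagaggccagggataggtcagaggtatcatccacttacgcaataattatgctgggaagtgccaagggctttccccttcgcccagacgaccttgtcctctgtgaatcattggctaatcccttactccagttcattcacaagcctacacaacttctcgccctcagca
Fut4, chr9:14752073-14752372, minus strand: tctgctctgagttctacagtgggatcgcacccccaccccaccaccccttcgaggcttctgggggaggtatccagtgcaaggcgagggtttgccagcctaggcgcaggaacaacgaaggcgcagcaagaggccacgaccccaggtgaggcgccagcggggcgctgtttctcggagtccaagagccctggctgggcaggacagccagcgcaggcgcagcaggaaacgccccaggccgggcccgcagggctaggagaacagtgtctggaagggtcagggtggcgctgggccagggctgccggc
Fut11, chr14:20694718-20695017, plus strand: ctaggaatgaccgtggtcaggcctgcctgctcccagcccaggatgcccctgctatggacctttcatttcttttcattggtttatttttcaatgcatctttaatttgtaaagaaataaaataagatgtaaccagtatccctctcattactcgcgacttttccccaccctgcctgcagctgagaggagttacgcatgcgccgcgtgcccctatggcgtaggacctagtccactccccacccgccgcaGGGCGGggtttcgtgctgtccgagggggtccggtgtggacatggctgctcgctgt
The GC box occurred once in the first St6gal1 window and once in that of Fut11, and these letters were not in the other 3. Over all members it was in 18 of 29 windows (62.1%), against 35.7% of all 32851 windows in the table. The RUNX core was in none of the 5 printed windows. It was in 3 of 29 member windows (10.3%), those of Fut7, St3gal6 and St8sia4, against 16.8% of all windows. The St6gal1 windows held 7, 10 and 6 CpG dinucleotides, the Fut4 window 18 and the Fut11 window 15. These matches are descriptions of letters, and the arrays do not show which start was used.

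Expression was not measured equally well for every member. Of the 32 genes 19 lay above the median of all probe-set means (5.86) and 11 below the lower quartile (4.40), where background makes up part of the value and differences are compressed. Among the 19 sialyltransferases 9 lay above the median, among them 5 of the 6 ST3Gal genes. Below the lower quartile were 4 of the 6 ST8Sia genes, which build polysialic acid and gangliosides mainly of the nervous system, and 3 of the 6 ST6GalNAc genes. Of the 9 fucosyltransferases 6 were above the median, and Fut1, Fut2 and Fut9 were below the lower quartile. All 4 sialic acid supply genes were above the median. Probe sets differ in how strongly they bind, so these places do not rank the genes by abundance. For 7 of the 32 genes, among them Fut4, Fut10 and St3gal4, the probe set carries a mark that can stand for probes matching other transcripts.

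**Figure D1:**
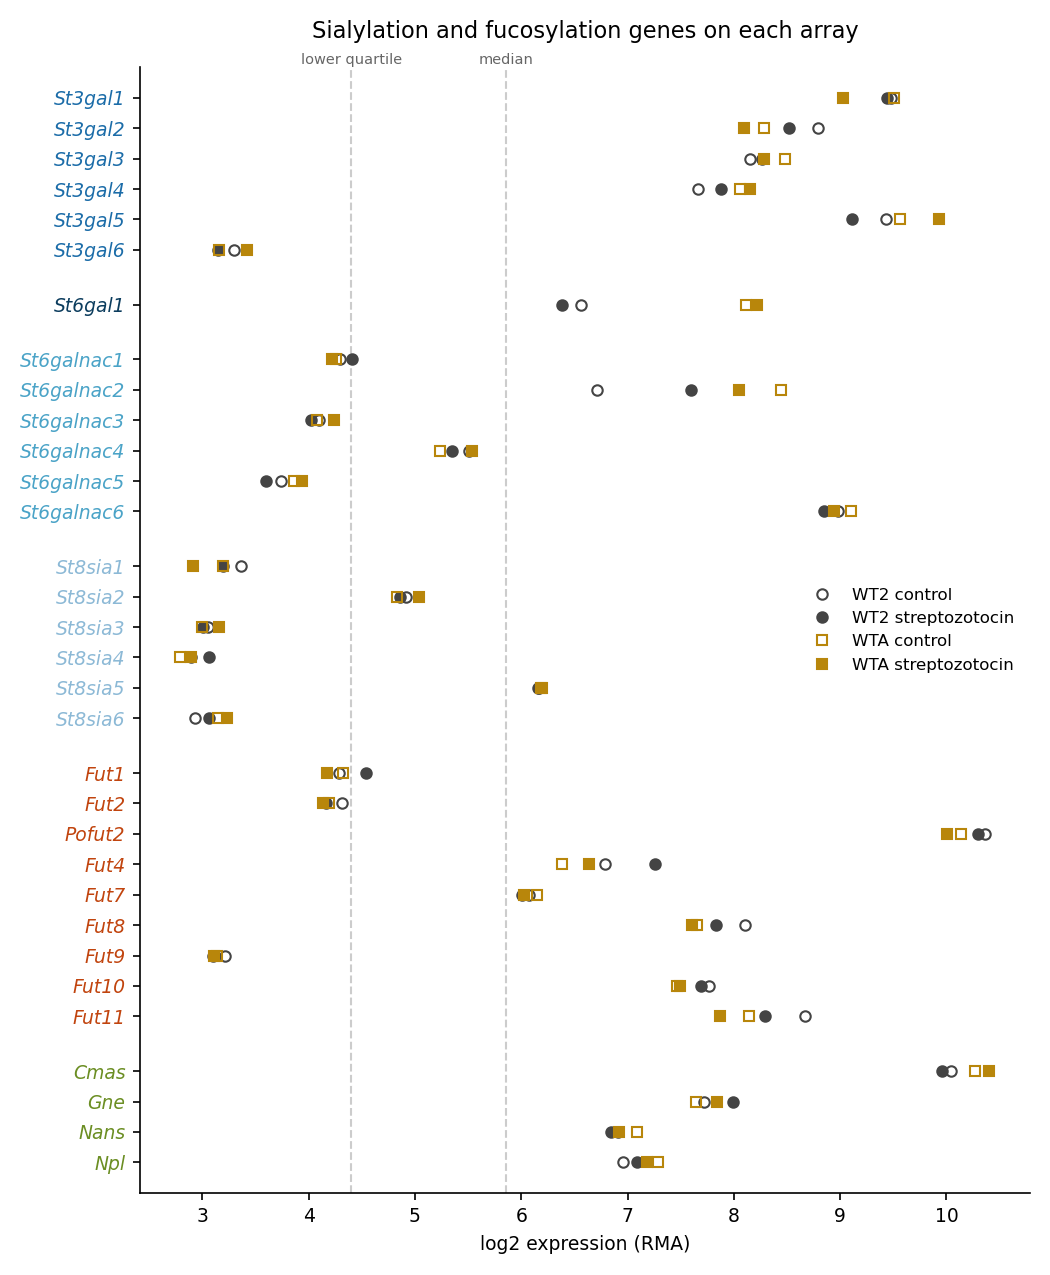
Log2 expression of the 32 genes on each of the 4 arrays, grouped by role, with open symbols for control and filled symbols for streptozotocin, circles for WT2 and squares for WTA. Dashed lines mark the lower quartile (4.40) and the median (5.86) of all probe-set means; the St6gal1 symbols split by culture, with both squares above 8 and both circles below 6.6.

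The first comparison set the cultures WTA and WT2 against each other, each with 1 control and 1 treated array. St6gal1, which adds sialic acid in the α2,6 linkage to N-glycans, was higher in WTA in both arms. Of the 19 sialyltransferases 13 had a higher mean in WTA, and of the 9 fucosyltransferases 8 had a lower one, where 575 of all 1246 probe sets were higher and 671 lower. The sialyltransferase count differed between arms, with 10 of 19 higher in WTA on the control arrays (median 0.02) and 14 of 19 on the treated arrays (median 0.17). For the fucosyltransferases 2 of 9 were higher in each arm. The median difference, WTA minus WT2, was 0.07 for the sialyltransferases, -0.25 for the fucosyltransferases and 0.17 for the sialic acid supply genes, and -0.02 over all 1246 probe sets. Only St6gal1 among the 32 members passed the test (limma, adjusted p under 0.05 over all probe sets), where 28 of 1246 probe sets passed (2.25%). At an unadjusted p under 0.05 there were 8 members of 32, against 16.9% of all probe sets. These were St6gal1, St6galnac2, St3gal4 and Cmas, higher in WTA, and St3gal2, Fut4, Fut11 and Fut8, lower. The count of 8 is to be read against that background, as many probe sets outside the list also reached it.

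For St6gal1 the log2 value was 6.56 in control and 6.38 in treated WT2 cells, and 8.11 in control and 8.21 in treated WTA cells. Both WTA arrays lay above both WT2 arrays, and the arms of each culture lay close together. The difference was 1.69 (SE 0.12), a 3.24-fold higher level in WTA, with a limma adjusted p of 0.0281. It was 1.56 between the control arrays and 1.83 between the treated arrays. The fits below that leave out 1 array also left out the treatment term. The call was lost, with the size hardly altered, without the WTA control array (1.74, adjusted p = 0.443), without the treated WTA array (1.64, 0.532), after quantile normalisation (1.67, 0.0695) and among probe sets above the median (1.69, 0.0620). Over all alternatives the adjusted p ran from 0.0040 to 0.532.

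St6galnac2, an enzyme that adds sialic acid to the GalNAc of O-glycans, had the next largest culture difference. Its log2 value was 6.72 in control and 7.60 in treated WT2 cells, and 8.44 in control and 8.05 in treated WTA cells. The WT2 control array was the lowest, and the cultures did not overlap. The difference of 1.09 (SE 0.34) missed the threshold (limma adjusted p = 0.257), and it was 1.73 between the control arrays against 0.46 between the treated arrays. The other ST6GalNAc genes differed between -0.11 (St6galnac1) and 0.23 (St6galnac5), with 0.10 for St6galnac6, which acts on gangliosides.

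The ST3Gal genes went both ways. St3gal5, which makes the ganglioside GM3, stood at 9.43 in control and 9.11 in treated WT2 cells, and at 9.56 in control and 9.93 in treated WTA cells. Both WTA arrays were higher, by 0.48 on average (SE 0.20, limma adjusted p = 0.375), most of it between the treated arrays (0.82 against 0.13). St3gal4, which caps N-glycans and selectin ligands, read 7.66 and 7.88 in control and treated WT2 cells and 8.05 and 8.15 in WTA cells. That is a difference of 0.33 (SE 0.10), again without overlap. St3gal2, which acts on O-glycans and gangliosides, showed the opposite order, 8.79 and 8.52 in control and treated WT2 cells against 8.28 and 8.09 in WTA cells. Its difference of -0.47 (SE 0.10) had a limma adjusted p of 0.135. St3gal1, the main sialyltransferase of core 1 O-glycans, differed by -0.19 with overlapping cultures, St3gal3 by 0.17 and the dim St3gal6 by 0.07. The ST8Sia genes differed little: St8sia1, the GD3 synthase, by -0.23 with overlapping cultures, and the other 5 by -0.13 to 0.19. The members below the lower quartile differed by at most 0.23 in size.

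Among the fucosyltransferases, 5 of 9 had both WTA arrays below both WT2 arrays and 0 had both above, where the shares over all probe sets were 27.7% and 21.3%. For the sialyltransferases the counts were 3 of 19 below and 8 of 19 above, and for the supply genes 0 and 3 of 4. Fut4, which attaches fucose to make Lewis x structures, stood at 6.79 in control and 7.26 in treated WT2 cells and at 6.38 in control and 6.64 in treated WTA cells. WT2 was the higher culture in both arms. The difference was -0.52 (SE 0.11, limma adjusted p = 0.135), and its other probe sets gave -0.38 and -0.32 with overlapping cultures. The main probe set carries a mark that can stand for probes matching other transcripts. The unmarked Fut4 probe set was dimmer, with a mean of 4.79, below the array median. It gave -0.10 between the control arrays and -0.66 between the treated arrays. Fut11, a family member whose acceptors are less settled, read 8.67 and 8.30 in control and treated WT2 cells and 8.14 and 7.87 in WTA cells. Both WTA arrays were lower, by 0.42 to 0.52 in matched arms, for a difference of -0.47 (SE 0.10, limma adjusted p = 0.135). Fut8, the only enzyme that adds core fucose to N-glycans, read 8.11 and 7.83 in control and treated WT2 cells against 7.65 and 7.61 in WTA cells. Its difference was -0.34 (SE 0.11). Pofut2, which puts fucose on thrombospondin repeats, differed by -0.25 (SE 0.09) with values of 10.37 and 10.29 in WT2 and 10.14 and 10.01 in WTA. Fut10 differed by -0.25, but its second probe set by 0.12, so its direction depends on the probe set. The one member above 0 was Fut7, the partner of Fut4 in making selectin ligands, at 0.05, and Fut1, Fut2 and Fut9 differed by -0.17, -0.08 and -0.04 at dim levels. The median of the fucosyltransferases was -0.30 for the 6 above the array median, and -0.17 when all probe sets of a gene were averaged.

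**Figure D2:**
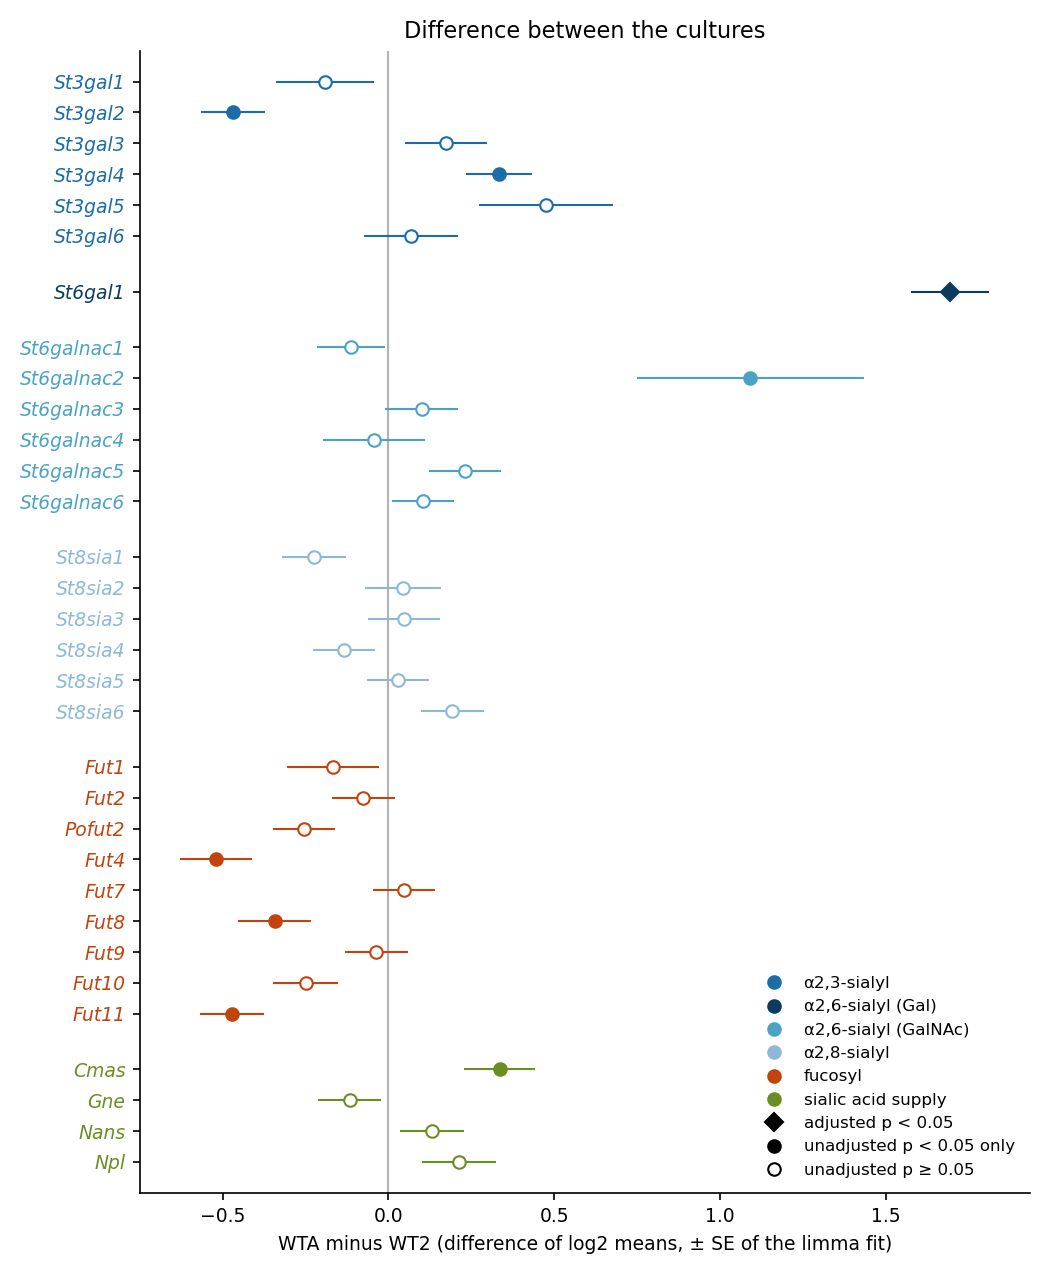
Difference of log2 means, WTA minus WT2, for the 32 genes, with the standard error of the limma fit over all probe sets as bars and colours for role. The diamond is St6gal1 at 1.69, filled circles had an unadjusted p under 0.05 only, and 8 of the 9 fucosyltransferases lie left of 0.

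Of the 4 genes of sialic acid supply 3 were higher in WTA without overlap of the cultures, and none passed the test. Cmas, which activates sialic acid to CMP-sialic acid in the nucleus, stood at 10.04 in control and 9.96 in treated WT2 cells and at 10.27 and 10.40 in WTA cells. Both WTA arrays were higher, by 0.34 (SE 0.11, limma adjusted p = 0.263). Npl, the lyase that breaks sialic acid down, and Nans, which condenses its carbon skeleton, differed by 0.21 and 0.13, each without overlap of the cultures. Gne, the enzyme that starts sialic acid synthesis and limits its rate, differed by -0.12 with overlap.

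Other genes of both pathways were set beside these. Among 7 genes of sialic acid transport, modification and removal 0 passed the test, 6 were higher and 1 lower in WTA, and the median was 0.06. Cmah, which turns the common sialic acid of mice into its glycolyl form, differed by 0.59 (limma adjusted p = 0.404). Its WT2 control array was the lowest, at 5.40 against 6.06, 6.17 and 6.47. Among 6 genes of a list that held 5 of fucose donor supply and transport and the protein fucosyltransferase Pofut1, 0 passed, 2 were higher and 4 lower, and the median was -0.11. In it Fpgt, of the fucose salvage route, differed by -0.41 and Pofut1, which puts fucose on Notch receptors, by -0.31. A list of 13 genes had a median of 0.03: galactosyltransferases, most of which build acceptors of sialic acid, B3galt6 of the glycosaminoglycan linker, and the chaperone C1galt1c1. Of the 13, 7 were higher and 6 lower. C1galt1, which makes the core 1 O-glycan that ST3Gal1 and the ST6GalNAc enzymes extend, was the one past the test. It read 7.55 and 7.88 in control and treated WT2 cells and 8.53 and 8.83 in WTA cells, higher in WTA by 0.97 (SE 0.09, limma adjusted p = 0.0445). B3galt1, a galactosyltransferase of type 1 chains, differed by 1.51 but did not pass (SE 0.20, limma adjusted p = 0.0702). It passed with median centring and with an intensity trend (adjusted p from 0.0388 to 0.605 over all alternatives). The C1galt1 call was lost without any 1 array, with the culture term alone, after quantile normalisation, above the median and with an intensity trend (adjusted p from 0.0133 to 0.759 over all alternatives). B3galt1 was read through a probe set whose mark can stand for cross-hybridising probes.

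Proteins that bind or carry these glycans were also measured. Of 9 Siglec receptors, which recognise sialic acid, 1 passed, Siglecg. It read 6.28 and 6.65 in control and treated WT2 cells and 7.44 and 7.74 in WTA cells, higher in WTA by 1.12 (limma adjusted p = 0.0445). The other 8 lay within 0.07 of 0 and the list's median was 0.00. Of 7 selectins and selectin ligand proteins Cd34 passed, lower in WTA by -1.07 (limma adjusted p = 0.0445), and Selp, P-selectin, differed by 0.79 without passing. The median of that list was 0.05. Both calls were lost without any 1 array, with the culture term alone, after quantile normalisation and above the median, with adjusted p over all alternatives from 0.0104 to 0.732 (Siglecg) and to 0.789 (Cd34).

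Some genes used as markers of other cells also differed between the cultures. Of 11 endothelial markers 4 were measured, and their summed linear signal was 437 and 845 on the WT2 arrays and 1864 and 2190 on the WTA arrays. Esm1 was higher in WTA by 4.93 (limma adjusted p = 0.00304). Thbd was higher by 1.33 but did not pass (limma adjusted p = 0.104). The defining marker Pecam1 (0.15) and Sele (0.05) were below the lower quartile in both cultures. Of 7 fibroblast markers 4 were measured, with a summed signal of 15628 and 11391 on the WT2 arrays and 9973 and 7689 on the WTA arrays. All 4 had a lower mean in WTA, with a median difference of -0.63, and only Cd34 passed the test. Lum, however, was higher in WTA by 0.26 on the treated arrays, and its cultures overlapped. Cd34, counted among the 4, is the same gene as in the selectin list. Of 15 leukocyte markers 9 were measured, 5 of them below the lower quartile, and none passed the test. The sum of the 9 lay between 376 and 464 on every array. The brightest, Csf1r (7.40 to 7.92), differed by -0.18 on the control arrays and by 0.52 on the treated arrays, WTA minus WT2. The arrays do not show which cells made these marker transcripts. Any part of other cell types in the St6gal1 and fucosyltransferase differences was not tested. In RNA from a whole culture, fewer cells of a type and less RNA per cell cannot be told apart.

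**Figure D3:**
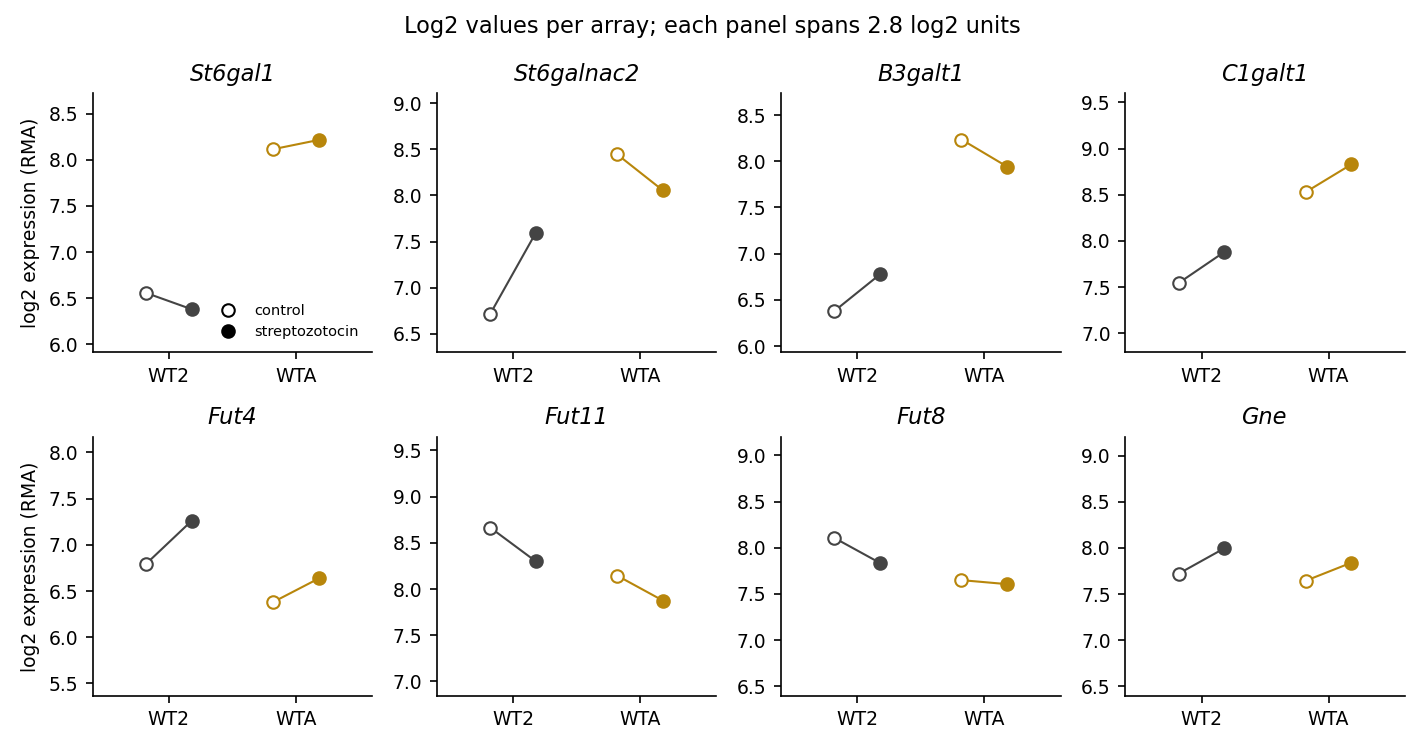
Log2 expression on each array for St6gal1, St6galnac2, the galactosyltransferase genes B3galt1 and C1galt1, 3 fucosyltransferase genes and Gne, with lines joining control (open) and streptozotocin (filled) within a culture. Every panel has the same span, and the upper 4 genes are higher in WTA while Fut4, Fut11 and Fut8 are higher in WT2.

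The second comparison, streptozotocin against control, asked whether the compound altered these genes in cells kept in osteogenic medium. No member passed the test (limma, adjusted p of 1 for each of the 32), and 0 of 1246 probe sets did (0%). At an unadjusted p under 0.05 there were 0 members, against 2.01% of all probe sets. The main fit did not pair the arrays, so the difference between the cultures is part of its spread. A fit that paired the 2 arrays of each culture through a replicate block again called, with limma, 0 at an adjusted p under 0.05. At an unadjusted p under 0.05 that fit gave 2 members, Fut4 and Fut11, against 6.42% of all probe sets. The differences of the 32 genes ran from -0.32 (Fut11) to 0.36 (Fut4). The median was 0.04 for the sialyltransferases, -0.09 for the fucosyltransferases and 0.02 for the supply genes, beside -0.01 over all probe sets. With 2 arrays a group, absence of a call does not show that the genes did not respond.

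Fut4 had the largest difference in size. With streptozotocin its log2 value was 6.95 ± 0.44, and in control cells 6.59 ± 0.29 (SD, n = 2 each). The treated array was the higher one in both cultures, by 0.47 in WT2 and 0.26 in WTA, but the groups overlapped because WT2 was higher throughout. In the fit without the block the difference of 0.36 had an SE of 0.29, and with the block one of 0.11 (limma adjusted p = 0.716 with the block). Without the treated WT2 array it was 0.05, without the WTA control array 0.16, without the WT2 control array 0.57 and without the treated WTA array 0.67. The other probe sets of Fut4 gave 0.42 and 0.41, with both treated arrays above both control arrays. All are named for 1 transcript, so they are not independent. The marks on the main probe set and on that at 0.41 can stand for probes that match other transcripts.

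Fut11 was on the other side, at 8.09 ± 0.30 with streptozotocin and 8.40 ± 0.37 without (SD, n = 2 each). It was lower by 0.37 and 0.27 in treated WT2 and WTA cells, with overlap of the groups. The mean difference was -0.32 (SE 0.26 without the block, and SE 0.10 and limma adjusted p = 0.716 with it). It was -0.06 without the WT2 control array, -0.11 without the treated WTA array, -0.53 without the treated WT2 array and -0.58 without the WTA control array. Such values also hold the culture difference. By the probe set used for each gene, 6 of the 9 fucosyltransferases were lower with streptozotocin in both cultures. Only Fut4 was higher in both. The shares over all probe sets were 28.5% lower and 22.6% higher in both. Besides Fut11 the 6 were Fut8 (-0.16), Fut2 (-0.11), Pofut2 (-0.10), Fut7 (-0.09) and Fut9 (-0.07), none of them past the test. The second Fut2 probe set gave 0.02 with opposite signs in the cultures. The second Fut10 probe set was higher in both (0.003 in WT2 and 0.23 in WTA). The median of the fucosyltransferases was 0.01 without the WT2 control array and between -0.17 and -0.04 without one of the others.

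By the probe set used for each gene, Gne was the one member with both treated arrays above both control arrays. Over all probe sets 10.8% had that order, among them the second Fut10 probe set and the other Fut4 probe sets. Gne stood at 7.72 and 7.64 in control WT2 and WTA cells and at 8.0 and 7.84 in treated cells. The difference was 0.24, with 0.27 in WT2 and 0.20 in WTA. Its SE was 0.10 without the block (limma adjusted p = 1) and 0.10 with it (limma adjusted p = 0.783). The next enzymes of the route differed by -0.12 (Nans) and 0.03 (Cmas), and Npl by 0.01. Both treated arrays lay below both control arrays for 6 members, against 13.8% of all probe sets. These were St3gal1, St6galnac6, St8sia1, Fut7, Fut2 (first probe set only) and Fut9, of which St8sia1, Fut2 and Fut9 are below the lower quartile.

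St3gal1 was one of them. It read 9.48 and 9.51 in control WT2 and WTA cells and 9.44 and 9.03 in treated cells. The treated WTA array was the low one, and the WT2 arrays differed by 0.04 only in size. The mean difference was -0.26 (SE 0.17 without the block and 0.15 with it), with -0.04 in WT2 and -0.48 in WTA. The mean difference of St8sia1, the GD3 synthase, was -0.23 (WT2 -0.18, WTA -0.28) at values of 2.91 to 3.37, near the low end of the array. St3gal2 was lower in both cultures (-0.28 in WT2, -0.19 in WTA) and St3gal4 higher in both (0.22 and 0.10).

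Of the 19 sialyltransferases 3 were higher in both cultures, 4 lower in both and 12 had opposite signs, several with values near 0. Over all probe sets 47.7% had opposite signs. For St6galnac2 the WT2 difference was 0.88 and the WTA difference -0.39, so treated cells of the cultures lay closer (7.60 and 8.05) than control cells (6.72 and 8.44). St3gal5 went the other way, by -0.32 in WT2 and 0.37 in WTA. St6gal1 gave -0.18 (WT2) and 0.10 (WTA), small beside its difference between cultures. With 1 array per arm in each culture these differences have no test.

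Genes around these enzymes gave 0 calls in the treatment comparison, too. The medians were 0.05 for sialic acid transport, modification and removal, 0.04 for the fucose list that includes Pofut1, and 0.00 for the galactosyltransferase list. Of the 5 fucose supply and transport genes 3 were higher and 2 lower in both cultures. Fpgt was higher by 0.35 in WT2 and 0.21 in WTA, and Pofut1 was lower by 0.43 and 0.04 in size. All 4 fibroblast markers were lower in treated cells in both cultures, with a median of -0.44. Their summed signal was 15628 and 9973 in control cells and 11391 and 7689 in treated WT2 and WTA cells, against 437 and 1864 in control and 845 and 2190 in treated WT2 and WTA cells for the 4 endothelial markers. The endothelial median was 0.20, with Thbd at 1.01 and 0.20 and Esm1 at 0.50 and 0.33 in WT2 and WTA. The defining marker Pecam1 (-0.02) and Sele (-0.05), both below the lower quartile, had opposite signs in the cultures. So did all 9 leukocyte markers, with Csf1r at -0.26 in WT2 and 0.45 in WTA. Any part of other cell types in the differences above was not tested.

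**Figure D4:**
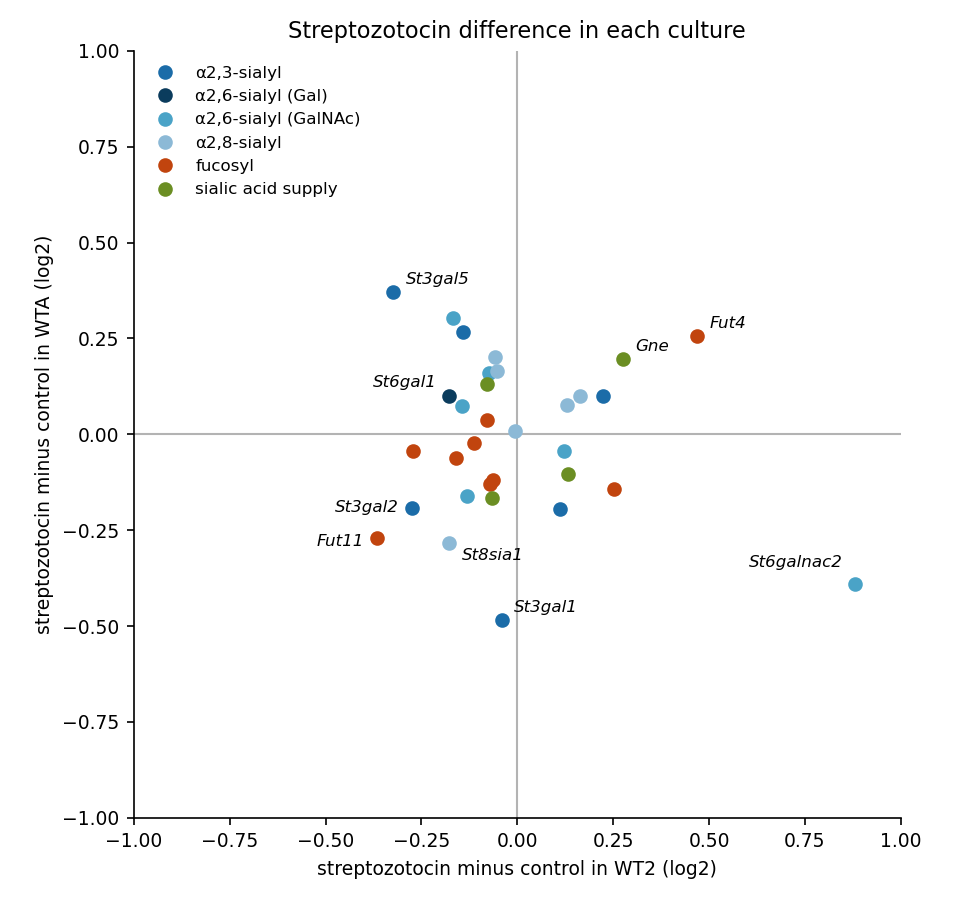
Streptozotocin minus control in WT2 (horizontal) and in WTA (vertical) for the 32 genes, as differences of log2 values from 1 array per arm, coloured by role. Fut4 and Gne lie in the upper right and Fut11 in the lower left, while St6galnac2, at 0.88 and -0.39, lies far from the others.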

How the data were processed

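Total RNA (0.5 ug) from 4 mouse VSMC samples was labelled with biotin and hybridised to Affymetrix arrays of glycan-related genes, per the labels. The authors deposited log2 values made by RMA (version not given in the sources used here), 1246 probe sets per array. The accession that opens each probe set's name was matched to RefSeq symbols, and 963 probe sets had 1 symbol. The members and lists were chosen with earlier results of these data known.

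Differences are between log2 means. limma 3.58.1 (R 4.3.3) was fitted to all probe sets with Benjamini-Hochberg adjustment, a threshold of 0.05 and no filter. Streptozotocin was tested without a block (2 residual degrees of freedom), culture with terms for treatment and culture (1 residual). Tables were made in Python 3.11.15 with pandas 2.3.3. The fits were also run on simulated data. For streptozotocin these held no difference between cultures, so that run does not show how the fit without a block performs here. The replicate number names the same cell sample in both arms, so it pairs arrays. Deviations of same-numbered arrays from their group means correlated at 0.600 over 1246 probe sets. The number of arrays limits the precision.

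Described in full are members past the test, the 3 with the highest mean, and those with the largest differences in each role group. Of each related list at most 2 genes are named, those with the largest culture difference. St3gal2, St3gal4, Fut8 and Fut11 were given in full after their values were seen. The alternatives were a replicate block, the culture term alone, median centring, quantile normalisation, an above-median filter, an intensity trend, a robust fit, averaged probe sets and leaving out each array.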

Additional observations from a re-analysis of the deposited data

Results flagged for a closer look

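For 6 of the 32 members the streptozotocin difference had opposite signs in the cultures, each larger in size than the median over all probe sets (0.13 in WT2 and 0.10 in WTA). Over the array 152 of 1246 probe sets had such a pattern (12.2%), against 18.8% of the members. The differences between cultures were not tested, as 1 array per arm in each culture leaves no residual. The streptozotocin difference in WTA minus that in WT2 was -1.27 for St6galnac2 (0.88 in WT2, -0.39 in WTA). It was 0.69 for St3gal5 (-0.32 and 0.37), 0.47 for St6galnac4 (-0.17 and 0.30) and 0.41 for St3gal6 (-0.14 and 0.27). For Fut1, which makes the H antigen, it was -0.40 (0.25 and -0.14), and for Npl -0.24 (0.13 and -0.10). St3gal6 and Fut1 are below the lower quartile of the array.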

How the results depend on the processing

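The count of probe sets past the culture test was 28 and became 13 with the culture term alone, 8 after quantile normalisation, 2 among probe sets above the median (fewer were tested), 49 with the robust fit and 0 to 18 without 1 array. The member count of 1 became 0 after quantile normalisation and in the above-median filter, and 0 to 1 without 1 array. The St6gal1 culture difference was 1.67, 1.69 and 1.61 to 1.78 in these settings. The paired fit with the replicate block called 0 probe sets and 0 members for streptozotocin, as did the fit without it and every other alternative, so the block changed no call.

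Group medians for streptozotocin without 1 array ran from -0.029 to 0.135 (sialyltransferases), -0.17 to 0.012 (fucosyltransferases) and -0.12 to 0.16 (supply), and averaged probe sets gave -0.068 for the fucosyltransferases. Leaving out an array unbalances the cultures, so these values also hold the culture difference. The culture median above the array median was 0.17 for the sialyltransferases. That of the fucosyltransferases was -0.17 with averaged probe sets, -0.30 above the median, -0.23 with median centring and -0.29 to -0.19 without 1 array.

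No gene followed here reversed under a change of normalisation, filter or model. Without 1 array the streptozotocin difference reversed for Cmas (-0.19 to 0.25), Pofut2 (-0.24 to 0.041), St3gal5 (-0.39 to 0.43), St6gal1 (-0.955 to 0.88), St6galnac2 (-0.62 to 1.11), Fut8 (-0.39 to 0.071) and St3gal2 (-0.49 to 0.021), and the culture difference for Gne (-0.25 to 0.021) and St3gal1 (-0.43 to 0.050). Other causes were not tested.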
